A study of Rattus norvegicus with 6 samples.

Results

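The runs described here are stretches of at least 3 PIWI-interacting RNAs (piRNAs) whose database accession numbers follow each other without a gap and whose array probes all gave signal in rat pancreatic islets. Members were selected on measured values: a piRNA probe entered only where the scanner software called it well above background on all 6 arrays. Such always detected probes numbered 7721 of 39727 piRNA probes (19.4%), and 726 of them, in 216 runs, had always detected neighbours at consecutive numbers on the array. The other 6995 always detected probes lay outside runs, 1664 of them in pairs and 5331 with no always detected neighbour. Because detection chose the members, their levels are given as a description.

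The study compared islets of Goto-Kakizaki (GK) rats with islets of Wistar rats, all aged 3 months. The GK strain, derived from Wistar stock, develops type 2 diabetes without obesity. Each strain gave 3 samples, and per the labels' protocols islet total RNA was extracted individually, labelled with Cy3 at its 3′ end by RNA ligase, and hybridised 1 sample per array. Since islets are mixed tissue, fewer cells of a type and less RNA per cell cannot be told apart.

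In the animal germline, piRNAs are cut from long precursor transcripts of genomic clusters, load onto PIWI proteins and guide the silencing of transposons. Many piRNAs can come from 1 cluster and may overlap each other in sequence. Accession numbers are handed out in the order in which sequences were submitted, so consecutive numbers may or may not mean neighbouring or similar sequences. Sequences and genome positions of these piRNAs were not used here, so what the members of a run share beyond their numbers is not known.

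Levels are spot brightness: log2 of the processed signal minus the 75th percentile of the always detected probes of the same array, so that 0 marks that percentile. Probes differ in brightness for the same amount of RNA, and a level is therefore no abundance. The strain difference of a probe is its mean level in GK minus that in Wistar. By scan date, GK 2 and GK 3 were taken to lie on a second slide, and GK 1 on the first with the 3 Wistar arrays. Slide, inferred in this way, and strain thus overlapped in part. Correlations between arrays over 11357 probes lay between 0.873 and 0.969. GK 2 stood apart in its median processed signal, which was 3.11, 7.88 and 2.44 on GK arrays and 3.42, 2.62 and 2.87 on Wistar arrays. No islet, acinar, duct, endothelial, immune or stellate cell marker of the lists used had a named probe on the array, so the tissue label could not be checked and the part of other cell types was not tested.

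Most runs were short. Of the 216 runs, 168 had 3 members, 32 had 4, 12 had 5, 1 had 7 and 3 had 9, and the mean length was 3.36. Always detected probes followed each other more often in 1 range of accession numbers than in the other. The array covers DQ601959 to DQ698066 (the DQ6 numbers, 15191 probes) and DQ700399 to DQ767590 (the DQ7 numbers, 24536 probes), a division made after the values were seen. The share always detected was 19.9% among DQ6 numbers and 19.1% among DQ7 numbers. Yet 147 runs with 516 members lay among the DQ6 numbers, against 69 runs with 210 members among the DQ7 numbers. Runs held 17.1% of the always detected DQ6 probes and 4.47% of the always detected DQ7 probes. All 16 runs of 5 or more members were DQ6 runs, and the longest DQ7 run had 4 members.

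The same contrast appeared in the number that follows. Among DQ6 numbers, the next probe was always detected in 38.7% of cases after an always detected probe and in 15.4% after any other probe. For DQ7 numbers these shares were 20.8% and 19.0%. Of 6238 sets of 3 consecutive DQ6 numbers on the array, 222 (3.56%) were detected throughout, against 72 of 9192 sets of DQ7 numbers (0.783%). These shares describe how the members were chosen and carry no test. The probes of consecutive numbers were not printed side by side: their spots lay a median of 158 rows and 24 columns apart on the array, close to the distance for probes whose numbers differed by more.

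Runs ended as often at a number without a probe as at one with a probe that failed the rule. At 216 of the 432 run ends the next number had no probe on the array. The next number was not detected on any array at 136 ends (31.5%), was detected on 1 to 4 arrays at 70 ends (16.2%) and on 5 arrays at 10 ends (2.31%). Just inside the rule stood the 168 runs of 3. Just outside it stood 832 pairs, of which the brightest was DQ611604 and DQ611605. DQ611604 had levels of 7.54, 7.54 and 7.41 on the GK arrays and 7.32, 7.21 and 7.06 on the Wistar arrays. DQ611605 had 9.06, 9.01 and 9.36 in GK and 8.89, 8.81 and 8.59 in Wistar. Both were higher on all 3 GK arrays than on any Wistar array, by 0.30 and 0.38 on the log2 scale. Another 91 probes beside runs or pairs missed the rule by 1 array. The brightest of these, DQ612689, had 1.76, 0.97 and -0.27 in GK and 1.76, 1.60 and -4.57 in Wistar, so Wistar 3 alone kept it out.

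Members were somewhat brighter than other always detected piRNAs, with a median level of -1.12 (quartiles -2.42 and 0.70) against -1.74 outside runs. Their levels spanned -3.83 to 10.49, and 99 of the 726 lay above the 90th percentile of always detected probes. Within a run, levels were alike only in part. The SD of level was 2.02 within runs, 2.42 over all members and 2.23 over all always detected probes. The intraclass correlation, the share of the variation between members that lies between runs, was 0.30 for level and ran from 0.287 to 0.311 over the 6 single arrays. The members of a run share their arrays and may share sequence, and the correlation is given as a description over 216 runs.

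This likeness of level belonged to the DQ6 runs as measured here, where the intraclass correlation was 0.41 (0.393 to 0.421 over single arrays). In the DQ7 runs it was -0.08 (-0.093 to -0.049), which means that members of a run were no closer in level than members of different runs. The difference between the brightest and the dimmest member of a run had a median of 2.08 in DQ6 runs and 3.51 in DQ7 runs. Members lay within 1 log2 unit of each other in 36 of 147 DQ6 runs (24.5%) and in 3 of 69 DQ7 runs (4.35%). They spanned over 4 log2 units in 31 DQ6 runs (21.1%) and 28 DQ7 runs (40.6%). Over all runs the range went from 0.22 to 13.22 log2 units.

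Likeness faded over a few numbers. Over all pairs of always detected DQ6 probes, the correlation of level between the 2 probes was 0.49 at a distance of 1 (755 pairs), 0.22 at 2, 0.15 at 3, 0.06 at 5 and 0.01 at 10. The median difference of level was 0.87 at a distance of 1, 1.35 at 2 and 1.83 at 10. Among DQ7 probes 1 number apart, the correlation of level was -0.01 over 587 pairs, with a median difference of 1.62. These pairs overlap in their members and share all 6 arrays.

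The evenest of the 3 runs of 9 was DQ607116 to DQ607124 with mean levels between 0.05 and 1.19. Its brightest member, DQ607122, had levels of 2.54, 1.13 and 1.54 in GK and 0.96, 0.75 and 0.20 in Wistar, with all GK arrays above all Wistar arrays and GK 1 the highest. Its last and dimmest member, DQ607124, had 0.25, -0.05 and 0.05 in GK and 0.34, 0.20 and -0.49 in Wistar, and the strains overlapped. The strain differences of the 9 members had a mean of 0.53, which was 0.28 without Wistar 3 and 0.35 without GK 3. DQ607122 was 2.14-fold higher in GK at a limma adjusted p of 0.456. Across the 6 arrays the members moved alike, with a median correlation of 0.73 between the profiles of 2 members. A run of 7, DQ614588 to DQ614594, picked out after its values were seen, lay higher, between 2.63 and 4.06. Its first member had 3.90, 4.12 and 4.14 in GK and 3.82, 3.44 and 3.79 in Wistar, again without overlap.

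The other runs of 9 were uneven. DQ614389 to DQ614397 ran from -2.99 to 8.98 within consecutive numbers. Its dimmest member, DQ614392, had levels of -3.25, -3.14 and -2.91 in GK and -2.68, -2.93 and -3.00 in Wistar. Its brightest member, DQ614395, only 3 numbers on, had 8.71, 9.20 and 9.26 in GK and 8.82, 8.73 and 9.14 in Wistar. In both probes the strains overlapped, so the large steps in brightness came without a strain difference beyond the spread. DQ615076 to DQ615084 spanned 8.22 log2 units, and its extremes stood side by side. DQ615080 had -3.72, -2.99 and -2.95 in GK and -3.36, -3.51 and -3.60 in Wistar, whereas DQ615081 had 3.97, 5.03 and 5.10 in GK and 5.26, 4.85 and 4.94 in Wistar.

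The widest run of all held the brightest member. DQ610113 had levels of 10.51, 10.41 and 10.76 in GK and 10.39, 10.43 and 10.45 in Wistar. The next number, DQ610114, had -3.02, -1.36 and -1.93 in GK and -3.35, -3.27 and -2.28 in Wistar, and DQ610115 had -2.87, -1.85 and -2.35 in GK and -3.85, -3.18 and -2.30 in Wistar. The brightest member was thus followed by a pair of dim ones, and the strains overlapped in all 3. A similar step marked DQ602427 to DQ602430. DQ602428 had -3.66, -2.43 and -3.54 in GK and -3.84, -3.86 and -4.31 in Wistar, while DQ602429 had 8.50, 9.24 and 9.08 in GK and 8.67, 8.42 and 8.28 in Wistar. Only the dim probe of these neighbours kept the strains apart, with every GK array higher.

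The runs with the highest mean level were of both kinds. In DQ628192 to DQ628194 the members were alike: DQ628192 had 5.84, 4.32 and 4.67 in GK and 5.82, 5.76 and 5.68 in Wistar. DQ628193 had 5.80, 4.57 and 4.79 in GK and 5.79, 5.72 and 5.68 in Wistar, and DQ628194 had 5.14, 4.60 and 4.46 in GK and 5.35, 5.20 and 4.95 in Wistar. All 3 were low on GK 2 and GK 3 and near the Wistar levels on GK 1, the GK array that shared the Wistar scan date. In DQ614404 to DQ614406 a single bright spot carried the mean. DQ614404 had 8.93, 9.43 and 9.40 in GK and 8.94, 8.97 and 9.15 in Wistar, and its neighbours had mean levels of 1.79 and 2.38. Near the dim end, DQ609600 to DQ609602 had mean levels of -3.54, -3.21 and -2.85. DQ609600 had -3.89, -2.49 and -3.39 in GK and -3.69, -4.35 and -3.41 in Wistar, and the strains overlapped there as in both of its neighbours.

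No member differed between the strains at an adjusted p under 0.05 in limma with Benjamini-Hochberg adjustment over 11407 probes, against a background of 5 probes (0.0438%). The smallest adjusted p of a member was 0.274. At an unadjusted p under 0.05 there were 70 members (9.64%) and 1232 tested probes (10.8%). A looser criterion, an unadjusted p under 0.05 with at least 1.5-fold, was met by 55 members higher in GK (7.58%), against a background of 7.9% of tested probes. It was met by 12 members lower in GK (1.65%), against 2.77%. With this scaling, members stood near the background for higher values and somewhat below it for lower ones. The background was counted for this fit only. Counts of members under other settings, given next, therefore stand without one and are no result about the members. The count of 67 also rests on single arrays: it was 25 when GK 2 or GK 3 was left out, 31 without Wistar 2 and 142 without GK 1. With slide as a fixed block, so that GK 1 alone met the Wistar arrays, it was 13. The p-values set each strain difference against the spread between these samples, moderated over all tested probes. The split into 55 higher and 12 lower rests on the scaling. It was 29 and 14 after quantile normalization, 4 and 61 when the percentile was taken over all probes, 11 and 59 without scaling, 23 and 24 with normexp background correction, and 29 and 19 in the matrix deposited by the authors.

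For that reason, each member was placed on 1 side of the median strain difference of all tested probes, which was 0.17. The median over members was 0.09 (quartiles -0.16 and 0.42), and it was 0.15 over always detected piRNAs outside runs. By this measure 316 members lay above the median of tested probes and 410 at or below it. The side also turned with the scaling: 418 members lay above and 308 at or below after quantile normalization, and 417 and 309 did so in the authors' deposited matrix. Without Wistar 1 the counts were 365 and 361. They were 269 and 457 with normexp, and 193 and 533 when the median was taken with no filter on dim probes. In 69 of the 216 runs (31.9%) all members lay on the same side, 24 runs above and 45 below, and 147 runs held members on both sides. After quantile normalization 50 runs lay wholly above and 29 wholly below, and without Wistar 1 the counts were 40 and 39. With normexp they were 14 and 57, and with no filter on dim probes 5 and 87. With the main scaling and all arrays, members lay on the same side in 57 of 168 runs of 3 and in 12 of 48 runs of 4 or more. They did so in 53 of 147 DQ6 runs (36.1%) and in 16 of 69 DQ7 runs (23.2%). The share to be met without any likeness was not worked out, so these counts are a description. The strain difference had an SD of 0.45 within runs and 0.49 over all members. Within a run the distance between its highest and lowest member had a median of 0.67, from 0.03 to 3.36.

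The intraclass correlation of the strain difference was 0.17 over 216 runs, against 0.30 for level, a gap that was not tested, and it ran from 0.103 to 0.262 when each of the 9 pairs of 1 GK and 1 Wistar array was used alone. With GK 1 alone against the Wistar arrays, all of the same scan date, it was 0.07. With GK 2 and GK 3 against the same Wistar arrays it was 0.19. Both values share the Wistar arrays, and the part of the slide was not tested. In DQ6 runs the intraclass correlation of the strain difference was 0.23, and in DQ7 runs it was 0.0079. It was 0.13 in runs of 3, 0.08 in runs of 4 and 0.50 in the 16 runs of 5 or more, where that of level was 0.39.

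Members that were alike in level were also more alike in strain difference. Of 510 neighbouring pairs within runs, 291 (57.1%) lay on the same side of the median, and their strain differences correlated at 0.22. Where the neighbours were within 1 log2 unit in level, 167 of 249 pairs (67.1%) lay on the same side, with a correlation of 0.49. This figure was 0.34 for GK 1 alone and 0.49 for GK 2 and GK 3, both against the same Wistar arrays. Where the levels were 1 to 4 units apart, 96 of 198 pairs (48.5%) lay on the same side, and where they were over 4 units apart, 28 of 63 (44.4%). Level and strain difference come from the same spots, and brightness also sets how far above background a spot lies.

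That pattern too was carried by the DQ6 numbers. Of 212 neighbouring DQ6 pairs with levels within 1 unit, 151 (71.2%) lay on the same side, with a correlation of 0.57. For DQ7 this was 16 of 37 pairs (43.2%), with a correlation of 0.04. Over all always detected DQ6 pairs close in level, inside runs or not, the strain differences correlated at 0.59 for a distance of 1 (407 pairs), 0.31 for 2 (212 pairs), 0.24 for 3 (169 pairs), 0.08 for 5 (116 pairs), 0.19 for 10 (135 pairs), 0.01 for 100 (134 pairs) and -0.13 for 1000 (89 pairs). The value for DQ7 pairs close in level was -0.06 at a distance of 1 (194 pairs). Among whole runs, 22 of the 39 whose members lay within 1 unit in level were on 1 side, against 36 of 118 in the middle and 11 of the 59 that spanned over 4 units. The median profile correlation between members was 0.56, 0.18 and -0.05 in these 3 classes.

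The closest likeness in strain difference among the named runs was that of DQ614086 to DQ614089. DQ614086 had levels of 1.24, 1.70 and 0.50 in GK and 1.98, 2.27 and 1.36 in Wistar. DQ614087 had 1.33, 1.63 and 0.51 in GK and 1.99, 2.35 and 1.53 in Wistar. DQ614088 had 1.19, 1.63 and 0.38 in GK and 1.86, 2.18 and 1.32 in Wistar. In each of them GK 3 was the lowest array and Wistar 2 the highest, and the strains overlapped. DQ614089 followed the same order higher up, at 1.85, 2.09 and 0.95 in GK and 2.37, 2.77 and 1.95 in Wistar. The strain differences were -0.72, -0.80, -0.72 and -0.73, and the profiles correlated at a median of 0.99 over the 6 arrays, although none of the 4 reached a limma adjusted p below 0.456. Without GK 3 the differences were -0.40, -0.48, -0.38 and -0.39. DQ604302 to DQ604306, 5 members picked out after their values were seen, had the same median profile correlation of 0.99 with a mean strain difference of -0.13. That mean rested on single arrays: it was -0.55 without Wistar 3 and 0.15 without GK 3.

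The lowest mean strain difference of any run was -0.94, in DQ625161 to DQ625163. DQ625161 had 1.91, 1.32 and 1.42 in GK and 2.62, 2.26 and 2.18 in Wistar. DQ625162 had 1.95, 0.55 and 0.74 in GK and 2.35, 2.08 and 1.74 in Wistar, and DQ625163 had 1.72, 0.41 and 0.40 in GK and 2.12, 1.95 and 1.57 in Wistar. Only the first kept the strains apart, and in the others GK 1 reached into the Wistar range while GK 2 and GK 3 were low. All 3 met the looser criterion, at 1.75-fold, 1.97-fold and 2.05-fold lower in GK, each with a limma adjusted p of 0.456. With GK 1 alone against Wistar their differences were -0.44, -0.11 and -0.16, and with GK 2 and GK 3 they were -0.99, -1.41 and -1.48. DQ621518 to DQ621520, with a mean of -0.69, was divided in the same manner: its mean difference from Wistar was 0.32 for GK 1 and -1.19 for GK 2 and GK 3. Without GK 2 its mean was -0.41, and without GK 3 it was -0.46.

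The highest mean strain difference of any run was 1.15, in DQ747302 to DQ747304, where the middle member differed most. DQ747303 had 2.12, 4.24 and 3.92 in GK and 1.19, 1.67 and 0.95 in Wistar, so every GK array was above every Wistar array. Its difference was 2.16 ± 0.56 (limma's moderated SE, n = 3 each), 4.46-fold, with a limma adjusted p of 0.385. Without GK 1 the difference was 2.81. The run's mean difference from Wistar was 0.78 for GK 1 and 1.34 for GK 2 and GK 3. DQ747302 had -1.81, -1.50 and -1.42 in GK and -2.05, -2.07 and -2.93 in Wistar, also without overlap. DQ747304 had -2.15, -2.39 and -3.16 in GK and -3.03, -3.20 and -3.03 in Wistar, where GK 3 overlapped with Wistar.

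The dimmest run, DQ615151 to DQ615153, had a mean strain difference of 1.06, which was 0.67 without GK 2. DQ615151 had -3.65, -2.15 and -3.26 in GK and -3.48, -3.51 and -3.74 in Wistar. DQ615152 had -3.53, -1.87 and -2.87 in GK and -3.82, -4.13 and -4.10 in Wistar, and DQ615153 had -2.65, -1.84 and -2.84 in GK and -3.82, -3.64 and -3.97 in Wistar. GK 2, the array with the highest overall signal, was the highest for all 3, and the strains were apart in the last pair. Beside DQ625161 to DQ625163, the run DQ752625 to DQ752627 was the only run in which all 3 members met the looser criterion. They did so upward, by 1.00, 0.79 and 0.64. DQ752625 had 3.49, 3.59 and 3.49 in GK and 3.36, 1.88 and 2.34 in Wistar. DQ752626 had -2.37, -1.76 and -1.68 in GK and -2.92, -2.20 and -3.07 in Wistar, and DQ752627 had -0.77, -0.59 and -0.21 in GK and -1.14, -1.23 and -1.12 in Wistar. Only DQ752626 overlapped, and the run belongs to the DQ7 numbers, with levels 5.36 log2 units apart.

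In all, the 67 members that met the looser criterion were spread over 56 runs. Only 9 runs held more than 1 of them, and in 6 of these the members differed in the same direction, while in 3 they differed in opposite directions.

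The run with the widest strain differences was 1 of these 3. DQ623540 had 7.93, 8.56 and 8.79 in GK and 7.66, 7.46 and 5.04 in Wistar, a difference of 1.71. DQ623541 had -0.47, -0.75 and -0.40 in GK and -0.07, 0.59 and 2.72 in Wistar, a difference of -1.62, and DQ623542 had -0.38, -0.90 and 0.11 in GK and 0.06, 0.78 and 2.95 in Wistar, a difference of -1.65. Wistar 3 was far below the other arrays for the first probe and far above them for the other pair. Without it the differences were 0.87, -0.80 and -0.81. In DQ603761 to DQ603764 the same array stood apart again. DQ603763 had 3.07, 3.42 and 3.94 in GK and 3.11, 4.06 and -1.44 in Wistar, and DQ603764 had 3.85, 4.17 and 4.64 in GK and 3.71, 4.61 and -1.19 in Wistar. Their neighbours DQ603761 and DQ603762 were highest on Wistar 3, at -0.0023 and -1.77. Without Wistar 3, the strain difference of DQ603763 was -0.11 and that of DQ603764 was 0.06, against 1.56 and 1.85 with it.

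In DQ760717 to DQ760719 the opposite differences of DQ760718 and DQ760719 were not carried by Wistar 3. DQ760718 had -1.68, -1.01 and -0.93 in GK and -1.91, -2.60 and -3.05 in Wistar, with the strains apart. DQ760719 had 1.12, -0.78 and -0.46 in GK and 0.73, 1.36 and 1.35 in Wistar. There GK 1 lay among the Wistar arrays and GK 2 and GK 3 below them, a division along the scan dates. DQ760717 had -3.23, -2.58 and -3.37 in GK and -3.13, -3.40 and -2.77 in Wistar, and its difference of 0.04 turned to -0.31 after quantile normalization.

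Among members higher in GK, those with the smallest p mostly stood alone in their runs at the looser criterion. DQ615153 and DQ747303, described above, did not. The smallest belonged to DQ614306, with -1.98, -1.80 and -1.78 in GK and -3.23, -2.72 and -3.18 in Wistar, 2.27-fold higher in GK at a limma adjusted p of 0.274. Its neighbour DQ614305 had -2.90, -2.16 and -2.14 in GK and -2.77, -2.27 and -3.73 in Wistar, with overlap. DQ603795, the first of the brightest run, had 7.61, 8.25 and 8.25 in GK and 6.94, 6.88 and 6.59 in Wistar. All 3 GK arrays were above Wistar by a mean difference of 1.23 ± 0.28 (limma's moderated SE, n = 3 each). The next members DQ603796 and DQ603797 differed by 0.27 and -0.03. DQ615430 had -1.22, -0.92 and -0.93 in GK and -1.83, -2.95 and -2.95 in Wistar, and DQ614248 had -2.27, -1.67 and -1.81 in GK and -3.31, -3.01 and -4.38 in Wistar. Both kept the strains apart, while DQ615429 and DQ614249 beside them differed by 0.06 and -0.20.

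Among the members lower in GK the neighbours were more mixed. DQ625161, described above, lay in a run whose members all met the looser criterion. DQ615217 had 4.26, 3.52 and 3.61 in GK and 4.79, 4.72 and 4.63 in Wistar, lower on every GK array, by 1.89-fold at a limma adjusted p of 0.431. The next member, DQ615218, had 5.14, 3.31 and 3.58 in GK and 4.71, 4.76 and 4.93 in Wistar. There GK 1 was the highest array of all, while GK 2 and GK 3 lay below every Wistar array. DQ743885 had -2.02, -2.71 and -2.54 in GK and -1.57, -1.75 and -1.65 in Wistar, while its neighbours on either side differed by 0.51 and 0.21. DQ610787 had 2.16, 1.96 and 2.36 in GK and 2.89, 2.61 and 3.63 in Wistar, between DQ610786 at 0.60 and DQ610788 at -0.59. DQ626892, with 0.85, -0.09 and 0.18 in GK and 1.25, 1.16 and 0.96 in Wistar, shared its run with DQ626894, which was higher in GK by 1.34. DQ751654 had -1.01, -2.08 and -2.21 in GK and -1.22, -0.30 and -0.59 in Wistar, where GK 1 overlapped with Wistar. All 3 members of its run lay below the median strain difference of tested probes, at -0.26 or lower.

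Of the 347 piRNAs in the authors' deposited table of strain differences, 5 were members (0.689% of members), against 121 of all 7721 always detected piRNAs (1.57%). The table holds 347 of all 39727 piRNA probes. All 5 are given as up in GK in the authors' deposited table, which lists 128 piRNAs as up and 219 as down. The split among the 121 always detected ones was not counted. That table lists DQ747303 at 4.64-fold, DQ615430 at 2.57-fold, DQ614248 at 2.50-fold, DQ615153 at 2.05-fold and DQ603795 at 2.01-fold. Each of the 5 belonged to a different run, so no neighbour within a run was listed beside them.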

How the data were processed

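Islet RNA of 3 GK and 3 Wistar rats was measured on 1-colour arrays. The deposited scanner files hold spot intensity, background-subtracted within each array by Agilent Feature Extraction 11.0.1.1, per the file headers. The authors also deposited a matrix of log2 values for 18419 probes and a table of 347 piRNAs with their fold (a ratio). How the matrix was normalized is not stated in the labels or headers read here.

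Here log2 of the processed signal was centred on each array's 75th percentile over probes well above background on all 6 arrays, and outlier spots were left out, which removed 1 array's value for each of 2 members. The 11407 probes well above background on at least 3 arrays were fitted with limma 3.58.1 in R 4.3.3 (lmFit and eBayes, strain as the only term), and p-values were adjusted over all of them. The fit was tested on simulated data. Signal over background and the number of arrays limit the precision. Runs were built by accession number with Python 3.11.15. The slide was inferred from the scan date in the file headers, and arrays sharing a scan date were taken as the same slide. The normexp alternative started from median spot and background signals, with an offset of 50. Same-numbered samples did not deviate together (correlations -0.026, 0.039 and 0.039), so the numbers do not pair them.

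Members and lists were chosen with earlier results of these data known. Naming followed a rule: the 3 longest runs, the brightest 3 and dimmest 2, the 3 with the largest mean strain difference in each direction, the 3 widest in level and in strain difference, the 6 members with the smallest p in each direction, the brightest member, and probes at the rule's edge. Runs named after their values were seen are marked as such.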

Additional observations from a re-analysis of the deposited data

How the results depend on the processing

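No member passed an adjusted p of 0.05 under any of the alternatives run. The smallest limma adjusted p among the 38 named members was 0.0539, for DQ747303 without GK 1, when slide and strain cannot be told apart. Runs of other lengths use the main fit, in which no always detected piRNA passed, so their outcome was fixed in advance. The intraclass correlation of level (0.303) was 0.289 with normexp, 0.262 in runs of 2 or more, 0.388 in runs of 5 or more and 0.301 to 0.306 without 1 array each. In DQ6 runs (0.412) it was 0.380, 0.434 and 0.388 under the same 3 alternatives and 0.409 to 0.415 without 1 array each. For DQ7 runs (-0.0777) it was -0.0173 in runs of 2 or more and -0.0832 to -0.0721 without 1 array each. The intraclass correlation of the strain difference (0.166) was 0.0677 with slide as a fixed block, which leaves GK 1 against Wistar, 0.50 in runs of 5 or more and 0.133 to 0.233 without 1 array each, the highest without Wistar 3. In DQ6 runs (0.229) these values were 0.128, 0.50 and 0.183 to 0.320, and in DQ7 runs (0.0079) they were -0.113 with the slide block and -0.020 to 0.025 without 1 array each. The division into DQ6 and DQ7, the counts by side under other scalings and the run means without 1 array were chosen after seeing the data.

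The median strain difference of members (0.09) was -0.0276 after quantile normalization, -0.39 with the percentile over all probes, -0.29 without scaling, -0.0346 in the authors' deposited matrix, -0.02 relative to a lowess trend on level and 0.05 to 0.17 without 1 array each. The median of all tested probes was 0.17, and -0.10, -0.31, -0.22 and -0.10 under the first 4. Members thus lay below it as reported but above it after quantile normalization and in the authors' matrix. The count at the looser criterion (67) was 43 after quantile normalization, 37 with no filter on dim probes, 13 with slide as a fixed block, 43 with slide as a random block, 209 in runs of 2 or more and 4 in runs of 5 or more. Runs of 2 or more held 2390 members and runs of 5 or more held 94, against 726 under the main rule. The counts of 209 and 4 therefore come from lists of other sizes and cannot be set directly against 67. Leaving out 1 array gave counts of 25 to 142 among the 726 members. It was 142 without GK 1, when slide and strain cannot be told apart, 31 when Wistar 2 was dropped, and 25 when either GK 2 or GK 3 was. With the replicate block it was 55, and the runs on 1 side were 68, against 69. That count was 92 with no filter on dim probes and 61 to 79 without 1 array each. It was 522 of 1048 in runs of 2 or more and 4 of 16 in runs of 5 or more.

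The members followed here were named for large or widely spread strain differences or small p in these same values. Changing the filter on dim probes, limma's variance settings or adding the replicate block cannot turn a difference. Part of the following count was therefore fixed in advance. Of 684 strain differences of 38 named members under 18 settings, 672 kept their direction. The exceptions were DQ603762 at 0.0570 with normexp, DQ603763 at -0.11 without Wistar 3 (up to 2.64 without another array), and, with slide as a fixed block, DQ615151 at -0.0677, DQ621518 at 0.41, DQ621520 at 0.59 and DQ760717 at -0.13. DQ760717 was also at -0.31 after quantile normalization, -0.44 with the percentile over all probes, -0.35 without scaling, -0.31 in the authors' matrix, -0.11 without Wistar 2 and -0.20 without GK 2, and reached 0.20 without Wistar 3. The causes were not tested.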

Other observations

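Likeness of neighbours in level did not depend on run length in one direction. Among DQ6 numbers, the intraclass correlation of level was 0.46 in pairs, 0.48 in runs of 3, 0.26 in runs of 4 and 0.39 in runs of 5 or more. For the strain difference it was 0.31, 0.20, 0.11 and 0.50 in the same classes. Among DQ7 numbers the values for level were -0.0014 in pairs, -0.08 in runs of 3 and 0.0054 in the 3 runs of 4, and for the strain difference they were -0.02, 0.02 and -0.32.

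The second brightest always detected pair just outside the rule was DQ623340 and DQ623341. DQ623341 had levels of 6.94, 6.13 and 6.37 in GK and 6.62, 6.80 and 6.66 in Wistar, with overlap. Another probe that missed the rule by Wistar 3 alone was DQ728115, with -0.40, 0.19 and -0.63 in GK and -0.36, -0.35 and -6.08 in Wistar.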
